A study of Mus musculus with 48 samples.

Results

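Irg1, Nos2, Ido1, Slc7a2, Cybb, Sod2, Ptgs2 and Arg1 are 8 mouse genes for enzymes, and 1 amino acid transporter, of itaconate, nitric oxide, superoxide, prostaglandin and amino acid metabolism in inflamed tissue. They were picked by gene symbol, and they are 8 of the 24421 genes in the deposited tables. The 48 RNA-seq libraries, in 16 groups of 3, came from cells sorted by a fluorescent label out of mouse olfactory bulb, cortex or hippocampus. From Slc22a3-FF mice there are olfactory bulb mCh (mCherry) astrocytes given Gfap-Cre, labelled Slc22a3-cKO, and others given Gfap-mCh, which are the flox controls. The titles call both sets mCh astrocytes, although the table's column names for the Gfap-Cre libraries read RFP. From Aldh1l1-GFP mice there are GFP astrocytes and mCh neurons of each of the 3 regions, treated as Gq-CNO or Gq-Saline, and olfactory bulb GFP astrocytes treated as CNO-control or left untreated. Gq names a designer receptor and CNO the compound that activates it, and the titles do not say which cells carried the receptor. CNO-control is the label of a CNO group without Gq in its name, and all of the GFP and mCh neuron groups carry the Aldh1l1-GFP transgene, the untreated group included. Gfap-Cre and Gfap-mCh name the astrocyte promoter Gfap, and ages, sexes and the number of animals behind each library are not given. Nothing in the labels says that replicates are separate animals, so the p-values below measure only the spread between libraries.

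Irg1 (also named Acod1) makes itaconate from a citric acid cycle intermediate in activated macrophages and microglia, and itaconate slows succinate dehydrogenase and releases the antioxidant factor NRF2. Nos2 makes nitric oxide from arginine, Slc7a2 carries arginine into the cell, and Arg1 uses the same arginine to make ornithine and urea. Cybb is the catalytic subunit of the phagocyte NADPH oxidase that makes superoxide, Sod2 removes superoxide in mitochondria, Ptgs2 makes the prostaglandin precursor, and Ido1 opens the kynurenine pathway of tryptophan. Interferon-gamma and toll-like receptor signals are known to raise several of these genes in macrophages, and Slc7a2 is also found in resting astrocytes.

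In mm10 with the GENCODE vM21 annotation, Irg1 lies at chr14:103046977-103056573 on the plus strand and Nos2 at chr11:78920787-78960254 on the plus strand. Ptgs2 lies at chr1:150100031-150108227 on the plus strand, Sod2 at chr17:13006846-13040063 on the plus strand, Cybb at chrX:9435252-9487771 on the minus strand and Arg1 at chr10:24915221-24927484 on the minus strand. Ido1 lies at chr8:24584136-24597009 on the minus strand. Slc7a2 lies at chr8:40862396-40922308 on the plus strand and overlaps the antisense gene Gm26584. The sources used here do not say whether reads were counted by strand, so reads of Gm26584 cannot be told apart from those of Slc7a2.

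RefSeq promoters (GRCm38.p6, 250 bases upstream of the annotated start, 5′ to 3′) were matched for 4 of the 8 genes. Those of Irg1, Cybb and Ptgs2 are shown because these genes had most of their reads in the libraries labelled Slc22a3-cKO. For Cybb the start in the promoter table lies inside the gene span given above, whose far end belongs to another transcript. For Irg1 the RefSeq start, at 103047012, also lies inside the span given above. The end of its printed promoter, with the TATAAA match, therefore falls within that span. Capitals mark matches to motifs searched on both strands.
Irg1, chr14:103046762-103047011, plus strand: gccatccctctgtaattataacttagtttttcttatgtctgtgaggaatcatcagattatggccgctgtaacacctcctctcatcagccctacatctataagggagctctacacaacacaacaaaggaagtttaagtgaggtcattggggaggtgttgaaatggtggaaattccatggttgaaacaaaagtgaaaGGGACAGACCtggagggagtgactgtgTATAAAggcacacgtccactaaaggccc
Cybb, chrX:9469325-9469574, minus strand: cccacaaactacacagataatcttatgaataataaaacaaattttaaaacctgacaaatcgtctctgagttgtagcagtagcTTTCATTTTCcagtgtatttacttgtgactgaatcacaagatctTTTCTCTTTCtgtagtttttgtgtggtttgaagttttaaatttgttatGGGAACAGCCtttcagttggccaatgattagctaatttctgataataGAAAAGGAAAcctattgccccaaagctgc
Ptgs2, chr1:150099781-150100030, plus strand: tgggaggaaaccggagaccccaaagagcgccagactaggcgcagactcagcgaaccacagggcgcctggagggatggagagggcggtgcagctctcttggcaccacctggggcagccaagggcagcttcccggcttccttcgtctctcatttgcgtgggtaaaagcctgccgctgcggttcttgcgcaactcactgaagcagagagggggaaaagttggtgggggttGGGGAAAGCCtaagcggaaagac
The kappaB pattern, GGG and CC with any 5 bases between them, matched 1 time in each of the 3 promoters and 3 times in that of Sod2, which is not shown, and it is present in 45.8% of 32851 RefSeq promoters of the same length. The interferon response pattern, GAAA and GAAA with any 2 bases between them, matched 3 times in the Cybb promoter and in neither other promoter shown, and it is present in 2.98% of all promoters. TATAAA matched 1 time in the Irg1 promoter and is present in 12.4% of all promoters. TTCNNNGAA, the pattern that STAT factors bind, matched in none of the 3 and 1 time in that of Sod2, and it is present in 7.02% of all promoters. These matches describe letters only, and no binding was measured here.

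Levels below are recovered reads per 1000000 reads assigned to genes (RPM), a scale shared by all 48 libraries, and ± is the SD over the 3 libraries of a group. Depth ran between 228048 and 24664376 reads a library, and the ribosomal RNA entry Rn45s took 8.00 to 23.1% of reads. Of 57 mean RPM values checked, 14 were marked as moved when Rn45s was left out, and 3 under TMM scaling, edgeR's scaling between libraries. The GFP sorts carried astrocyte markers, with 8 markers summing to 38062 to 120595 RPM and 8 microglial markers to 71.2 to 2234 RPM. The mCh sorts held several cell types. In the 18 mCh neuron libraries, 6 oligodendrocyte markers summed to 18093 to 59528 RPM, astrocyte markers to 4541 to 17206 RPM and microglial markers to 3225 to 11444 RPM, against 1309 to 4168 RPM for 6 neuronal markers. In the libraries labelled Slc22a3-cKO, microglial markers summed to 4846 to 9514 RPM and astrocyte markers to 985.2 to 2612 RPM, while in the flox controls the sums were 4080 to 9408 RPM and 3934 to 8772 RPM. The deleted gene did not check the Slc22a3-cKO label: Slc22a3 had 0, 0 and 12 reads in the libraries labelled Slc22a3-cKO and 0 in all 3 flox controls. These are bulk samples, in which fewer cells of a type and less RNA per cell cannot be told apart.

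**Figure D1:**
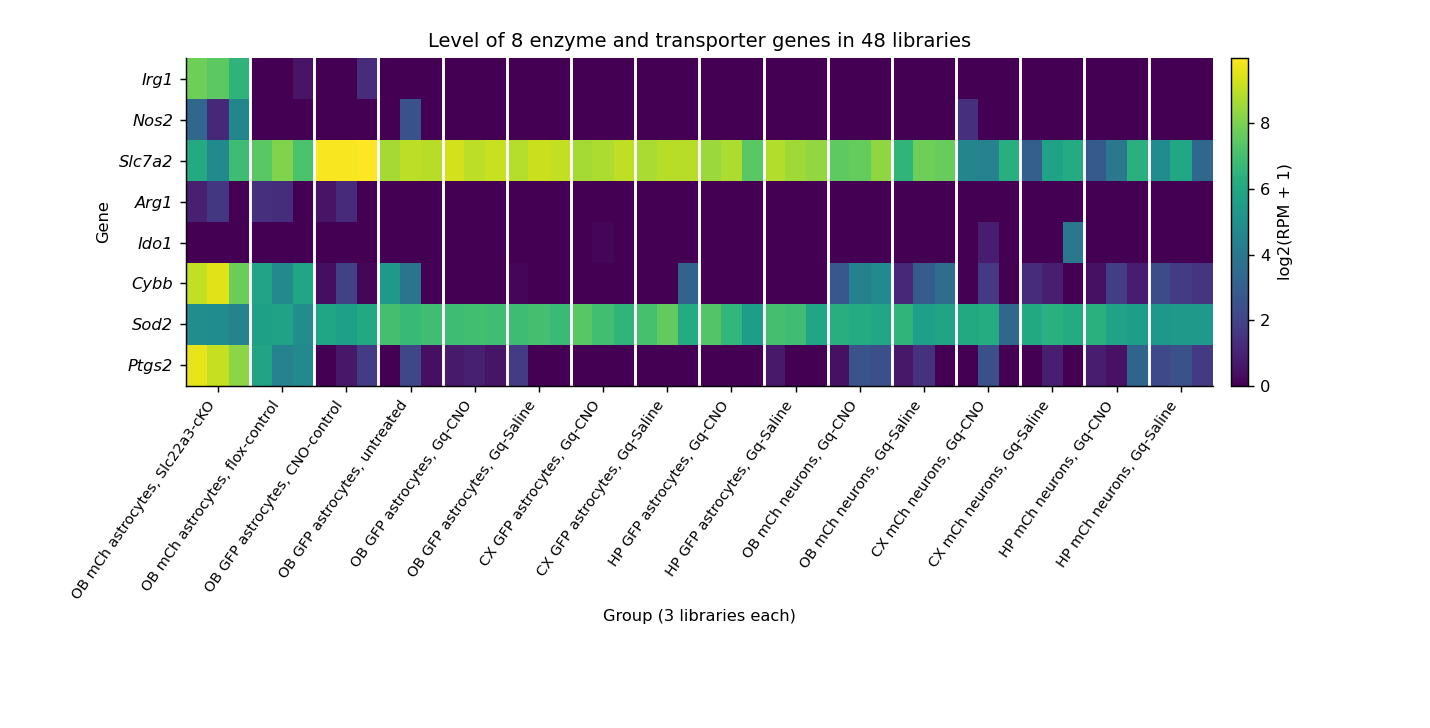
Heat map of log2(RPM + 1) for the 8 genes (rows) in the 48 libraries (columns, by group). Slc7a2 and Sod2 have reads in all 48 libraries, Irg1 and Nos2 are at 0 in 43, and the 3 highest columns for Irg1, Cybb and Ptgs2 are the libraries labelled Slc22a3-cKO.

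Irg1, Nos2, Cybb and Ptgs2 had almost all of their reads in the libraries labelled Slc22a3-cKO. Those 3 libraries held 99.7% of all Irg1 reads of the series, 95.7% of Nos2, 92.9% of Ptgs2 and 89.4% of Cybb, against 2.57% for Sod2 and 1.51% for Slc7a2. The 8 genes were proposed with this pattern known, so the comparison of the libraries labelled Slc22a3-cKO with the flox controls is given as a description with no p-value. Of the 8 genes, 7 passed the filter on low values (3 or more libraries with a normalised value of 10 or higher) and 4 were called higher by limma at an adjusted p under 0.05. In that comparison 2.53% of 13465 tested genes were called, and 1.37% were called higher, and nothing is read from the count of 4, since genes that passed only through the high group had to differ.

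Irg1, the itaconate-making enzyme, had 1870, 2358 and 673 reads (221, 176 and 89.8 RPM) in the libraries labelled Slc22a3-cKO, against 0, 0 and 4 reads in the flox controls. All 3 libraries labelled Slc22a3-cKO stood far above all 3 flox controls. The means were 162 ± 66.6 RPM in libraries labelled Slc22a3-cKO and 0.150 ± 0.259 RPM in flox controls. The ratio of pooled RPM was 1297, with a 95% counting interval of 506 to 4762 that covers counting error only and rests on 4 flox control reads, all in the third library. Without that library Irg1 was at least 1233-fold higher against a floor of 3 reads over the flox controls, and without the second flox control the ratio was 777. On the log2(normalised value + 1) scale the difference was 9.82 (SE 0.90), a size that depends on the pseudocount.

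Nos2, the inducible nitric oxide synthase, had 75, 16 and 174 reads (8.86, 1.20 and 23.21 RPM) in the libraries labelled Slc22a3-cKO, against 0 in each flox control. Its order among the 3 was not that of Irg1: the third library, lowest for Irg1, was highest for Nos2. Against a floor of 3 reads over the pooled flox controls, Nos2 was at least 93.5-fold higher in the libraries labelled Slc22a3-cKO. That bound was 43.1 without the third library labelled Slc22a3-cKO, which held 174 of the 265 reads, 161 without the second, and 56.0 without the second flox control. The fitted log2 difference of 6.05 (SE 1.36) depends on the pseudocount.

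Cybb, the superoxide-making oxidase subunit, had 529, 747 and 214 RPM in the libraries labelled Slc22a3-cKO, against 56.4, 25.0 and 57.3 RPM in the flox controls. Ptgs2, the inducible cyclooxygenase, had 785, 551 and 306 RPM in the libraries labelled Slc22a3-cKO, against 56.0, 20.4 and 24.7 RPM in the flox controls. For both genes the lowest library labelled Slc22a3-cKO was above the highest flox control, as it was in 10.6% of all tested genes. Pooled RPM of Cybb were 12.4 times as high in the libraries labelled Slc22a3-cKO (counting interval 11.8 to 13.2), with a log2 difference of 3.53 (SE 0.50). For Ptgs2 the ratio was 16.98 (counting interval 15.9 to 18.1) and the log2 difference 4.25 (SE 0.45). Both genes had at least 220 reads in every flox control.

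Slc7a2, the arginine transporter, had 66.8, 26.1 and 118 RPM in the libraries labelled Slc22a3-cKO, against 170, 268 and 140 RPM in the flox controls. The groups did not overlap, as in 12.2% of tested genes on the lower side, and the log2 difference was -1.46 (SE 0.47), which was not called. Without the third library labelled Slc22a3-cKO the log2 difference was -1.90 and Slc7a2 was called lower. Sod2, the mitochondrial superoxide dismutase, had 28.5, 27.9 and 21.3 RPM in the libraries labelled Slc22a3-cKO, against 50.1, 53.5 and 28.6 RPM in the flox controls. Its log2 difference was -0.53 (SE 0.43), not called. Arg1 had 7, 28 and 0 reads in the libraries labelled Slc22a3-cKO and 15, 18 and 0 in the flox controls, and Ido1 had 0 reads in all 6. Arg1 therefore overlapped fully between the groups at counts too low to compare.

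**Figure D2:**
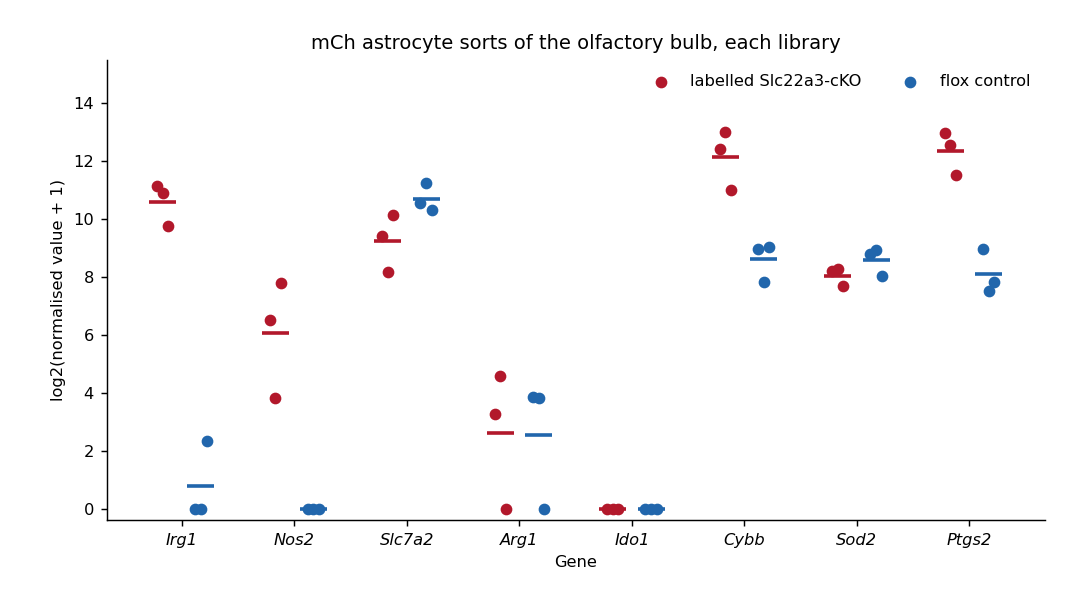
Log2(normalised value + 1) of the 8 genes in each of the 3 libraries labelled Slc22a3-cKO and the 3 flox controls, with a line at the mean of the 3. Irg1, Nos2, Cybb and Ptgs2 lie higher in all libraries labelled Slc22a3-cKO, Slc7a2 lies lower in them, and Ido1 is at 0 throughout.

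Per kilobase of exons the 4 high genes had a different order from that of their fold differences. The length used joins all annotated exons of a gene (10008 bases for Sod2, 9135 for Slc7a2), and the order depends on that choice. In the libraries labelled Slc22a3-cKO, levels in RPKM, the RPM per kilobase, were 119 ± 52.3 for Ptgs2, 85.5 ± 46.2 for Cybb, 61.9 ± 25.4 for Irg1, 7.69 ± 5.04 for Slc7a2 and 2.51 ± 2.53 for Nos2. In the flox controls, Slc7a2 at 21.1 ± 7.33 per kilobase was the highest of the 8, ahead of Cybb at 7.96 ± 3.17 and Ptgs2 at 7.36 ± 4.25. Slc7a2 was thus above Ptgs2 per length in the flox controls and below it in the libraries labelled Slc22a3-cKO.

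Cell type markers were read beside these genes. None of the 8 microglial markers was called, with summed levels of 4846 to 9514 RPM in libraries labelled Slc22a3-cKO and 4080 to 9408 RPM in flox controls. Their log2 differences ran between -0.41 and 1.68 with a median of 0.67, and the highest were Aif1 (1.68), C1qa (1.66) and C1qb (1.44), while Tmem119 differed by 0.86, Cx3cr1 by 0.20 and Csf1r by 0.11. Csf1r, the receptor that defines microglia and macrophages, averaged 1825 ± 639 RPM in libraries labelled Slc22a3-cKO and 1951 ± 739 RPM in flox controls. Mrc1, a marker of border-associated macrophages, averaged 433 ± 81.821 RPM in libraries labelled Slc22a3-cKO and 726 ± 275 RPM in flox controls, and none of 6 such markers was called. Astrocyte markers were lower in part, with 2 of 8 called (Aqp4 -2.40 and Slc1a2 -2.16, log2) and summed levels of 985.2 to 2612 RPM in libraries labelled Slc22a3-cKO against 3934 to 8772 RPM in flox controls. All 6 neuronal markers were lower, with 2 of 6 called (Snap25 -2.75 and Syt1 -1.97) and sums of 336 to 1018 RPM against 1265 to 3535 RPM. Those not called were Nefl (-3.63), Tubb3 (-2.77), Rbfox3 (-2.53) and Map2 (-0.92). Monocyte markers summed to 2.67 to 11.9 RPM in libraries labelled Slc22a3-cKO and 3.14 to 7.23 RPM in flox controls, with Chil3 at 0. The defining marker Ccr2 averaged 6.75 ± 5.04 RPM in libraries labelled Slc22a3-cKO and 5.42 ± 2.13 RPM in flox controls. Neutrophil markers summed to 0.118 to 1.64 RPM and 0.206 to 1.04 RPM, in the same order. T and NK cell markers summed to 7.68 to 43.2 RPM in libraries labelled Slc22a3-cKO and 5.54 to 16.2 RPM in flox controls, where Cd3e, Cd3g, Nkg7 and Gzmb were at 0. Cd3e had 5, 21 and 0 reads in the libraries labelled Slc22a3-cKO. The part of cell mixture in the values of Slc7a2, Cybb, Irg1, Nos2 and Ptgs2 was not tested.

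The differences of Irg1, Nos2, Cybb and Ptgs2 from the flox controls were also present when each gene was set against Csf1r reads of the same library. Csf1r differed least of the microglial markers (log2 difference 0.11), while Aif1 differed most (1.68) and P2ry12 was lower (-0.41). Irg1 had 89.5 ± 28.4 reads per 1000 Csf1r reads in libraries labelled Slc22a3-cKO and 0.0568 ± 0.0984 in flox controls. Cybb had 258 ± 68.6 reads per 1000 Csf1r reads in libraries labelled Slc22a3-cKO and 23.5 ± 3.38 in flox controls. Ptgs2 had 304 ± 114 reads per 1000 Csf1r reads in libraries labelled Slc22a3-cKO and 18.05 ± 8.97 in flox controls. The 18 mCh neuron libraries, which also carried Csf1r, had medians of 0 for Irg1, 0.909 for Cybb (range 0 to 21.3) and 0.409 for Ptgs2 (range 0 to 3.76). In the 24 GFP libraries, with far lower Csf1r, the values scattered: Cybb was at 357, 123 and 0 per 1000 Csf1r reads in the untreated libraries, of which the first lay above every library labelled Slc22a3-cKO (179 to 302). Among GFP libraries Ptgs2 reached 115 per 1000 Csf1r reads, in an olfactory bulb Gq-Saline library, and Irg1 reached 40.3, in a CNO-control library. Nos2 reached 42.8, on 8 reads in the second untreated library, which lay above every library labelled Slc22a3-cKO. The flox controls thus lay above the median mCh neuron library for Cybb and Ptgs2 per Csf1r read; they come from other mice and another table, and that step was not tested. Slc7a2, set against reads of the astrocyte glutamate transporter Slc1a2, turned the other way: 114 ± 19.8 per 1000 Slc1a2 reads in libraries labelled Slc22a3-cKO and 71.0 ± 18.2 in flox controls. Slc1a2 was itself lower by more than Slc7a2 (log2 differences of -2.16 and -1.46), so this ratio also carries the Slc1a2 difference. Of the other astrocyte markers only Aqp4 (-2.40) was lower by more than Slc7a2. Sox9 (-0.88), Gja1 (-0.78), Slc1a3 (-0.72), Aldoc (-0.70) and Gfap (-0.38) were lower by less, and Aldh1l1 was higher (0.34).

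**Figure D3:**
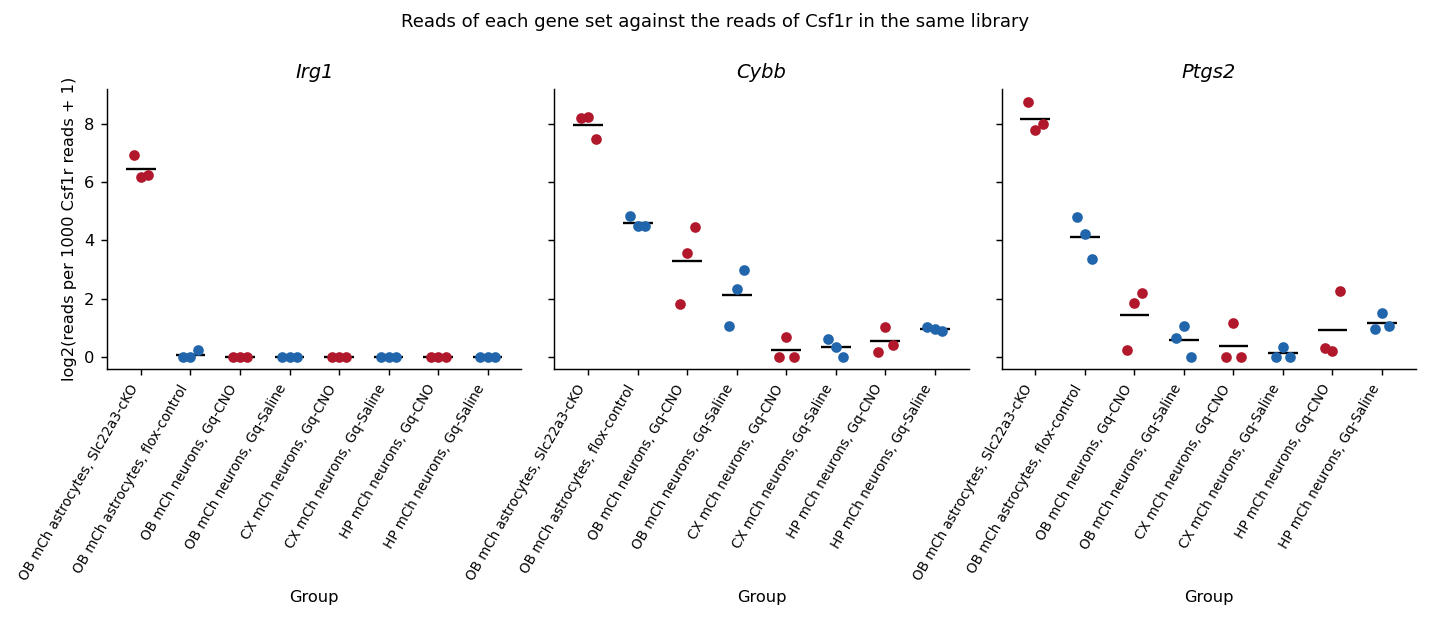
Log2(reads per 1000 Csf1r reads + 1) of Irg1, Cybb and Ptgs2 in the libraries of the 8 mCh groups, with a line at each group's mean. The 3 libraries labelled Slc22a3-cKO are the highest of the mCh libraries for each gene, at means of 89.5, 258 and 304 reads per 1000 Csf1r reads.

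Genes of the same pathways were read from lists chosen with earlier results of these data known. In the libraries labelled Slc22a3-cKO against flox controls, the median log2 difference of all tested genes was -0.10. Of 10 tested interferon-gamma signalling genes, 3 were called higher, among them Ciita, the switch for antigen-presentation genes (4.73), and the transcription factor Irf1 (1.80), with a list median of 1.21. Of 16 tested TLR and NF-kB genes, 1 was called higher, the cytokine Il1b (2.29), with a list median of 1.03. Of 7 tested kynurenine pathway genes, Kynu, which cleaves kynurenine, was called higher (4.76). Ifng itself, looked up after these values were seen, had 9, 15 and 0 reads in the libraries labelled Slc22a3-cKO and 0, 1 and 0 in the flox controls.

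No gene was called in the other 6 lists of that comparison. The NADPH oxidase list, which holds partners of Cybb and other oxidases, had 10 tested genes with a median of 0.61, among them the cytosolic subunit Ncf1 (1.15). The arginine and nitric oxide list had 14 tested genes with a median of -0.78, among them Ddah1, which breaks down methylated arginines (-2.62), and the arginine transporter Slc7a1 (-1.30). The itaconate and NRF2 target list had 15 tested genes with a median of 0.02, and the transcription factor gene Nfe2l2, which encodes NRF2, differed by 1.33. Superoxide and peroxide removal (13 tested, median 0.28), prostaglandin and leukotriene (16 tested, median 0.05) and alternative activation genes (7 tested, median 0.65) had no call either. Among these, Sod3, the extracellular superoxide dismutase, differed by -4.08 and the phospholipase Pla2g4a by 0.97.

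**Figure D4:**
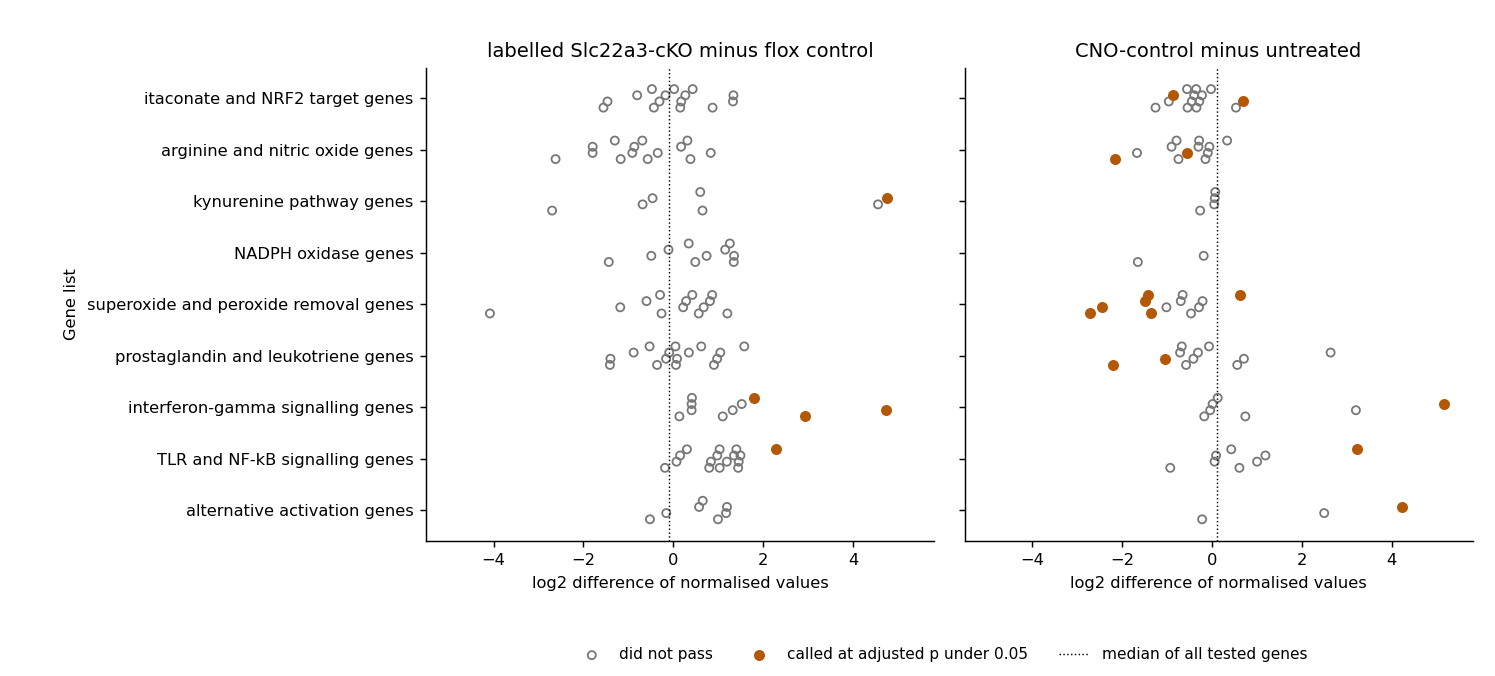
Log2 differences of the tested genes in 9 pathway lists for libraries labelled Slc22a3-cKO against flox controls and for CNO-control against untreated GFP astrocytes, with called genes filled and a dotted line at the median of all tested genes (-0.10 and 0.11). Calls are few and higher in the first comparison, and mostly lower, in the superoxide and peroxide removal list, in the second.

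In olfactory bulb GFP astrocytes, CNO-control libraries had more Slc7a2 and less Sod2 than untreated libraries. Slc7a2 had 946, 937 and 1009 RPM in CNO-control libraries, against 391, 508 and 481 RPM in untreated libraries. Every CNO-control library was above every untreated library, as in 16.7% of all tested genes. The normalised values averaged 3552 ± 148 in CNO-control and 2025 ± 171 in untreated libraries (n = 3 each), and the log2 difference was 0.81 (SE 0.12, limma adjusted p = 0.00153). Sod2 had 57.0, 48.03 and 66.7 RPM in CNO-control libraries, against 129, 107 and 119 RPM in untreated libraries. Here too the groups did not overlap, as in 16.2% of tested genes on the lower side. The normalised values averaged 211 ± 34.4 in CNO-control and 526 ± 74.5 in untreated libraries, and the log2 difference was -1.32 (SE 0.22, limma adjusted p = 0.00294).

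Of the 8 genes, 3 passed the filter in this comparison and 2 were called, against a background of 12.2% of 10940 tested genes, 5.29% higher and 6.88% lower. The third, Cybb, had 2, 25 and 1 reads in CNO-control libraries and 99, 23 and 0 in untreated libraries. Its groups overlapped, and the log2 difference was -2.75 (SE 1.68, limma adjusted p = 0.317). Without the third untreated library, which had 0 reads, it was -4.99 with a limma adjusted p of 0.0197. The 5 others were near 0: Arg1 had 3, 11 and 0 reads in CNO-control libraries and 0 in untreated ones, Irg1 had 10 reads in the third CNO-control library alone, and Nos2 had 8 reads in the second untreated library alone.

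Other quantities moved with this comparison. Depth was 6619479 to 8577907 reads in CNO-control libraries and 1724893 to 2964862 reads in untreated libraries. Microglial markers were lower in CNO-control libraries, with 6 of 8 called (Csf1r -2.77) and sums of 101 to 172 RPM against 442 to 594 RPM, and all 3 tested markers of border-associated macrophages were called lower. Astrocyte markers summed to 38062 to 44197 RPM in CNO-control and 48141 to 53160 RPM in untreated libraries, with Slc1a2 (-0.81), Gfap (-1.38) and Aldoc (-0.58) called lower and the other 5 not called, among them Sox9 (0.36), Gja1 (0.31) and Aqp4 (0.20). The neuronal marker Snap25 was called higher, at 375 ± 9.26 RPM in CNO-control and 178 ± 36.5 RPM in untreated libraries. Oligodendrocyte markers summed to 1904 to 2715 RPM in CNO-control and 1042 to 1456 RPM in untreated libraries, although Mbp averaged 206 ± 73.3 RPM and 372 ± 70.2 RPM. Rn45s took 8.90 to 11.52% of reads in CNO-control and 15.7 to 23.0% in untreated libraries. Set against Slc1a2, Slc7a2 was at 37.9 ± 4.87 reads per 1000 Slc1a2 reads in CNO-control libraries and 12.3 ± 1.04 in untreated libraries. The part of depth, Rn45s and the cell mixture in the differences of Slc7a2, Sod2 and Cybb was not tested.

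Genes that work beside Sod2 were also called lower in CNO-control libraries. Of 12 tested superoxide and peroxide removal genes, 5 were called lower and 1 higher, with a list median of -0.85, where the median of all tested genes was 0.11. The 4 largest were Prdx5 (-2.72) and Prdx2 (-1.48), which reduce peroxides, Gpx4 (-2.45), which reduces lipid peroxides, and mitochondrial thioredoxin Txn2 (-1.41). The remaining calls, named after their values were seen, were cytosolic Sod1 (-1.36) and catalase Cat, which was higher (0.63). Beside the arginine transporter, 2 of 12 arginine and nitric oxide genes were called, both lower: Ddah1 (-0.56) and Qdpr (-2.16), which recycles the biopterin cofactor. Of 11 prostaglandin and leukotriene genes, the prostaglandin D synthases Ptgds (-1.05) and Hpgds (-2.19) were called lower.

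The other lists held few calls or none. Of 14 itaconate and NRF2 target genes, 1 was called higher, Nfe2l2 (0.70), and 1 lower. Socs3, an inhibitor of cytokine receptors, was called higher (5.17) among 7 interferon-gamma genes. Nfkbiz, a nuclear partner of NF-kB, was called higher (3.22) among 8 TLR and NF-kB genes, and the transcription factor Klf4 was called higher (4.23) among 3 alternative activation genes. None of 4 kynurenine genes and neither of 2 NADPH oxidase genes was called.

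Between Gq-CNO and Gq-Saline libraries, none of the 8 genes was called in any of the 3 regions, in either sort. In the GFP astrocytes only Slc7a2 and Sod2 passed the filter. The background in limma was 0.00847% of 11810 tested genes in olfactory bulb, 0% of 9978 in cortex and 0% of 11519 in hippocampus, and an unadjusted p under 0.05 was reached by 564, 142 and 234 genes. In the mCh neurons 3, 2 and 2 of the 8 were tested in olfactory bulb, cortex and hippocampus. There the background was 0% of 10492, 9392 and 9808 tested genes, and 556, 428 and 445 genes had an unadjusted p under 0.05. Called counts over all genes with the other tools are given with the processing alternatives.

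Slc7a2 in olfactory bulb GFP astrocytes had 627, 510 and 560 RPM in Gq-CNO libraries, against 468, 586 and 529 RPM in Gq-Saline libraries. The groups overlapped, with a log2 difference of 0.11 (SE 0.15). In cortex, Slc7a2 had 396, 432 and 514 RPM in Gq-CNO libraries against 423, 474 and 485 RPM in Gq-Saline libraries. In hippocampus it had 354, 429 and 172 RPM in Gq-CNO libraries against 452, 378 and 331 RPM in Gq-Saline libraries. Both overlapped, and the Gq-CNO hippocampus library at 172 RPM was the lowest of all 24 GFP libraries for Slc7a2.

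Sod2 in olfactory bulb GFP astrocytes had 117, 124 and 121 RPM in Gq-CNO libraries and 116, 132 and 112 RPM in Gq-Saline libraries. In cortex it had 166, 123 and 92.3 RPM in Gq-CNO libraries against 133, 192 and 69.3 RPM in Gq-Saline libraries, and in hippocampus 158, 97.7 and 47.50 RPM against 130, 120 and 57.0 RPM. The spread of Sod2 within a group was thus small in olfactory bulb and wide in cortex and hippocampus, where the lowest library of each of the 4 groups was the one whose column is numbered 4 in the deposited table. These 4 libraries were also the highest of their groups for Csf1r, at 86.1 RPM (Gq-CNO) and 533 RPM (Gq-Saline) in cortex and at 261 RPM (Gq-CNO) and 173 RPM (Gq-Saline) in hippocampus, and the part of this in the Sod2 values was not tested. Cybb was at 0 in 17 of the 24 GFP libraries and Ptgs2 in 15, so these GFP sorts give little on either gene.

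In olfactory bulb mCh neurons, Cybb had 30, 104 and 96 reads (5.63, 20.03 and 26.1 RPM) in Gq-CNO libraries, against 2, 38 and 21 reads (1.14, 6.46 and 10.96 RPM) in Gq-Saline libraries. The ranges overlapped, and the log2 difference was 1.56 (SE 1.01, limma adjusted p = 0.922). Per 1000 Csf1r reads, Cybb was at 11.6 ± 9.40 in Gq-CNO and 4.04 ± 2.93 in Gq-Saline libraries, which also overlapped within their spread. Ptgs2 had 2, 25 and 16 reads in Gq-CNO and 1, 10 and 0 reads in Gq-Saline libraries, too few to pass the filter. Slc7a2 had 179, 197 and 316 RPM in Gq-CNO libraries and 91.2, 217 and 200 RPM in Gq-Saline libraries, with overlapping ranges and a log2 difference of 0.47 (SE 0.35).

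In cortex mCh neurons, Slc7a2 had 22.4, 20.4 and 74.5 RPM in Gq-CNO libraries and 7.19, 53.0 and 69.5 RPM in Gq-Saline libraries. In hippocampus mCh neurons it had 6.09, 14.96 and 80.8 RPM in Gq-CNO libraries and 27.8, 60.6 and 9.43 RPM in Gq-Saline libraries. Both pairs of groups overlapped, and the lowest and highest library of each treatment lay far apart. Cybb had 0 to 3 reads in Gq-CNO and 0 to 1 in Gq-Saline cortex libraries, and 1 to 27 reads in Gq-CNO and 4 to 16 in Gq-Saline hippocampus libraries, and it was not tested there. Ptgs2 had 0 to 6 reads in Gq-CNO and 0 to 1 in Gq-Saline cortex libraries, and 2 to 36 reads in Gq-CNO and 5 to 31 in Gq-Saline hippocampus libraries.

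Sod2 parted the groups in hippocampus mCh neurons but was not called. There it had 79.2, 53.5 and 47.7 RPM in Gq-CNO libraries, against 39.2, 40.9 and 40.0 RPM in Gq-Saline libraries. The groups did not overlap, as in 4.81% of tested genes on the higher side, and the log2 difference was 0.51 (SE 0.52, limma adjusted p = 0.990). In cortex it had 65.2, 72.3 and 8.77 RPM in Gq-CNO libraries against 66.2, 79.9 and 68.7 RPM in Gq-Saline libraries. The low value of the third Gq-CNO library stands on 2 reads in a library of 228048 reads, and the log2 difference of -1.09 (SE 0.75) had a limma adjusted p of 0.967. The difference in Gq-CNO effect between regions was tested for 4 of the 8 genes in each of 3 pairs of regions, and none was called, as was none of 12358 genes (633, 329 and 744 at an unadjusted p under 0.05).

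**Figure D5:**
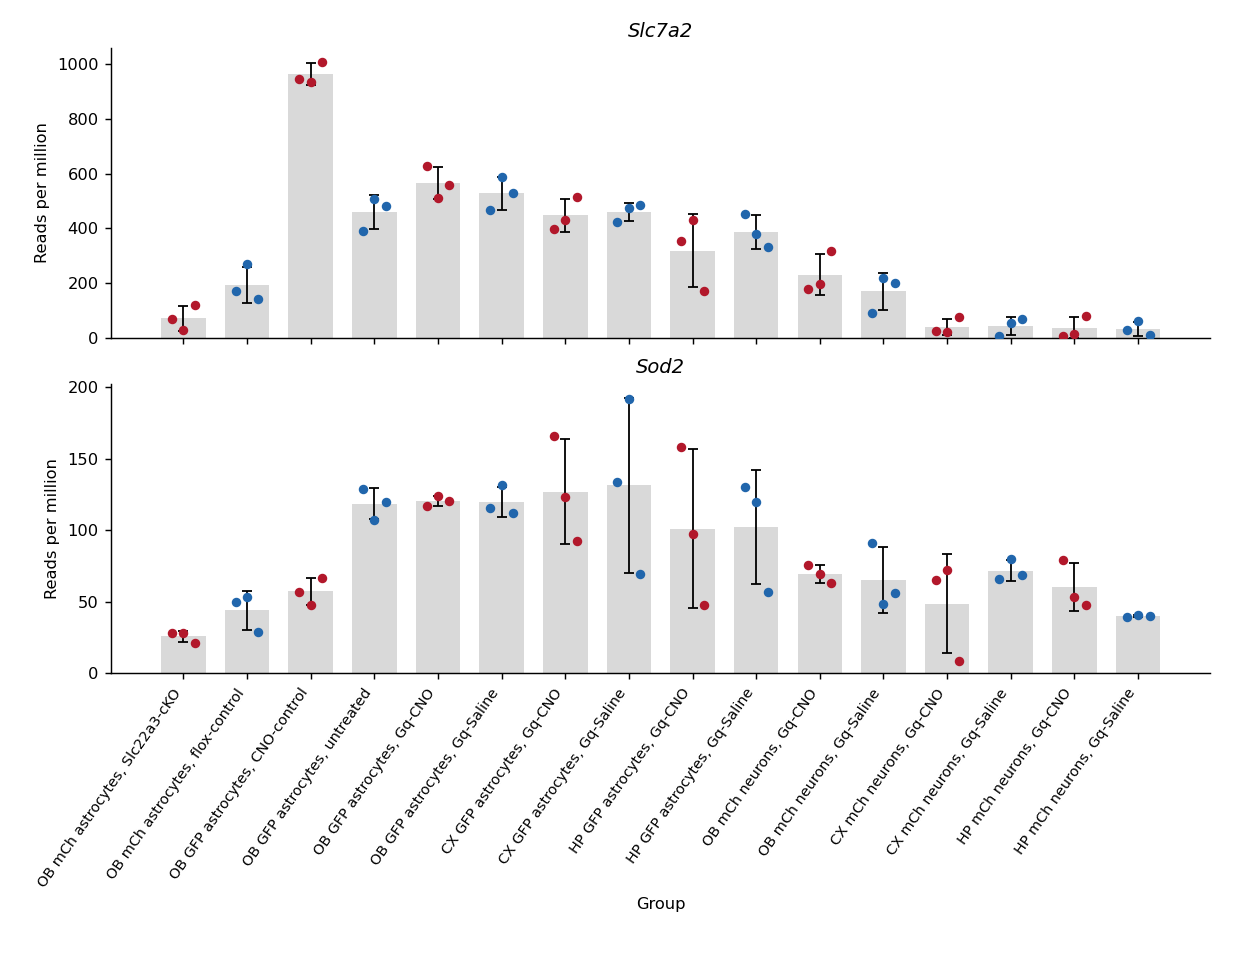
RPM of Slc7a2 and Sod2 in the 16 groups, with bars at the mean, error bars of 1 SD (n = 3) and points for libraries, on linear axes that start at 0. Slc7a2 is highest in the CNO-control group at 964 ± 39.2 RPM, and Sod2 is lowest in the libraries labelled Slc22a3-cKO at 25.9 ± 3.95 RPM.

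The mCh neuron libraries differed by region, over 6 libraries a region with both treatments pooled and the treatments fitted as terms. The comparisons of olfactory bulb with cortex and with hippocampus share the olfactory bulb libraries. Slc7a2 normalised values ran between 222 and 786 in olfactory bulb, between 18.3 and 179 in cortex, and between 14.5 and 203 in hippocampus. The olfactory bulb libraries lay above every library of the other regions. Their mean was 488 ± 182, against 102 ± 70.2 in cortex (log2 difference 2.55, SE 0.55, limma adjusted p = 0.00189) and 81.4 ± 76.1 in hippocampus (log2 difference 3.05, SE 0.55, limma adjusted p = 0.000278). Cortex against hippocampus differed by 0.50 (limma adjusted p = 0.786).

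Cybb normalised values ran between 2.78 and 65.0 in olfactory bulb, between 0 and 5.25 in cortex, and between 0.906 and 9.16 in hippocampus. The regions overlapped at the low end. The log2 difference of olfactory bulb against cortex was 3.31 (SE 0.94, limma adjusted p = 0.0217). That call was lost under quantile normalization (2.13, adjusted p = 0.182), in edgeR (3.76, adjusted p = 0.0751), and without the second or the third olfactory bulb library of either treatment (adjusted p 0.0528 to 0.0657). Olfactory bulb against hippocampus differed by 2.08 (limma adjusted p = 0.304). Sod2 averaged 164 ± 35.9 in olfactory bulb, 150 ± 64.3 in cortex and 122 ± 35.0 in hippocampus, and Ptgs2 averaged 4.77, 2.08 and 8.12, with no call for either.

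Of 4 tested genes of the 8, 2 were thus called higher in olfactory bulb than in cortex and 1 higher than in hippocampus, against backgrounds of 5.58% and 2.29% of 12358 genes called higher (8.58% and 3.91% in either direction). Between cortex and hippocampus 0 were called, against 0.388%. Of the microglial markers, 5 of 8 were called lower in olfactory bulb than in cortex and 3 of 8 lower than in hippocampus (Csf1r -0.995 and -0.79). C1qa was higher but not called (0.54 and 0.35). Border-associated macrophage markers were higher than in cortex but not called: Ms4a7 (2.85), Cd163 (1.66), Pf4 (1.36), Mrc1 (0.69), F13a1 (0.44) and Lyve1 (0.25). Against hippocampus they were also higher, and Mrc1 was called (1.29). Astrocyte markers moved with Slc7a2, with 5 of 8 called higher in olfactory bulb against each other region, although Slc1a2 was not called. The part of the cell mixture in the Slc7a2 and Cybb differences was not tested. Of the pathway lists, olfactory bulb against cortex had Sod3 (3.34), Prdx3 (2.25) and Prdx6 (1.66) called higher among 13 superoxide and peroxide removal genes, and Ddah1 (1.05) higher among 14 arginine and nitric oxide genes. Among 15 prostaglandin and leukotriene genes, Ptgds was called higher (1.54), and Hpgds (-1.03) and the prostaglandin-degrading Hpgd (-0.94) lower. Sdha, a subunit of the succinate dehydrogenase that itaconate slows, was called higher (0.83), as was Klf4 (3.16). Against hippocampus, Ptgds was the only call in these lists (1.53).

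Across the 16 groups, Slc7a2 was highest in CNO-control GFP astrocytes at 964 ± 39.2 RPM, followed by olfactory bulb Gq-CNO GFP astrocytes at 566 ± 58.7 RPM. That was the only gap among its 15 neighbouring pairs in which the libraries did not overlap. Below it the order of neighbouring groups cannot be told from the spread. Groups further apart did part: GFP libraries were at 172 RPM or more, and cortex and hippocampus mCh neuron libraries at 80.8 RPM or less. Per 1000 Slc1a2 reads, Slc7a2 was 16.5 ± 0.563 in olfactory bulb Gq-CNO and 15.1 ± 1.71 in Gq-Saline GFP astrocytes, against 4.66 ± 0.594 and 6.18 ± 1.41 in cortex and 4.07 ± 1.87 and 4.80 ± 1.25 in hippocampus. Olfactory bulb was likewise highest in mCh neurons, with 28.0 ± 0.517 and 26.2 ± 4.64 in olfactory bulb, 6.56 ± 3.64 and 7.38 ± 4.63 in cortex, and 4.54 ± 5.13 and 5.69 ± 3.78 in hippocampus. In GFP astrocytes Slc1a2 itself was lower in olfactory bulb, at 34432 (Gq-CNO) and 35086 RPM (Gq-Saline). It was at 96436 and 76490 RPM in cortex and at 80501 and 82394 RPM in hippocampus. Slc7a2 alone averaged 566 and 528 RPM in olfactory bulb, 447 and 461 RPM in cortex, and 318 and 387 RPM in hippocampus. The GFP ratios thus also carry the Slc1a2 difference. In mCh neurons Slc1a2 differed little between olfactory bulb and cortex (log2 difference 0.39) or hippocampus (0.18). Other astrocyte markers were called higher in olfactory bulb against cortex and hippocampus: Aqp4 (2.31 and 2.36), Slc1a3 (1.79 and 1.90), Gja1 (1.90 and 2.04) and Aldoc (1.51 and 1.38). The mCh ratios therefore do not adjust for the regional difference of these markers. The GFP tables were normalised separately, so the GFP order was not tested.

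Sod2 had 1 gap without overlap, between hippocampus Gq-Saline mCh neurons at 40.0 ± 0.842 RPM and the libraries labelled Slc22a3-cKO at 25.9 ± 3.95 RPM, which came last. Cybb was highest in libraries labelled Slc22a3-cKO at 497 ± 268 RPM, then in flox controls at 46.2 ± 18.4 RPM, and those neighbours did not overlap. Ptgs2 was at 547 ± 240 RPM in libraries labelled Slc22a3-cKO, at 33.7 ± 19.5 RPM in flox controls and at 3.47 RPM in the next group, hippocampus Gq-Saline mCh neurons, with no overlap at either step.

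The 4 rare genes were listed at 0 in most libraries. Outside the libraries labelled Slc22a3-cKO, Irg1 had 14 reads in 2 of 45 libraries, 10 in the third CNO-control library and 4 in the third flox control. The 18 mCh neuron libraries had 0 Irg1 reads, which allows up to 0.0487 RPM over the pooled libraries, while their microglial markers were as high as given above. Outside those libraries Nos2 had 8 reads in the second untreated library and 4 in the first cortex Gq-CNO mCh neuron library. Ido1, which opens the kynurenine pathway, had 36 of its 39 reads in the third cortex Gq-Saline mCh neuron library (14.5 RPM), 1 in the second cortex Gq-CNO mCh neuron library and 2 in the second cortex Gq-CNO GFP library. Arg1 had reads in 6 of 48 libraries, all of them olfactory bulb libraries of the CNO-control, Slc22a3-cKO-labelled and flox control groups, and 2.09 RPM at most.

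The genes whose levels ran most like these were ranked over the 48 libraries by Pearson's r of log2(RPM + 1) among 10255 candidates, with no p. All libraries of a group share their sort and region, so these values describe groups as much as genes. Slc7a2 ran with Slc4a4 (0.920), a bicarbonate transporter, and Slc1a3 (0.912), a glutamate transporter. Ptgs2 ran with Hcar2 (0.930), Nlrp1b (0.919) and Il1rn (0.905), and Cybb with Ifi204 (0.884), Nlrp1b (0.869) and Cd74 (0.860). By Spearman's rho the genes named for Ptgs2 ranked 97, 14 and 745, against 1, 2 and 3 by Pearson's r. Those named for Cybb ranked 27, 53 and 270 by Spearman's rho. Sod2 ran with Hist1h2bc (0.847), Rgs20 (0.815) and D10Jhu81e (0.812). Irg1, Nos2, Ido1 and Arg1 had 10 reads in fewer than 6 libraries and were not ranked.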

How the data were processed

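All 6 deposited tables hold normalised signal, which the values show to be whole read counts per gene that the authors divided by 1 size factor for each library. Per the submitters' processing notes, FastQC 0.11.7, MultiQC 1.11, STAR 2.5.0a, mm10 and DESeq2 1.30.1 were used; the counter and its annotation are not given in the sources used here. Per the labels, libraries came from 10 ng of total RNA. The 18 mCh neuron libraries share 1 table, and every other table was normalised separately, so tests stay within a table.

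Reads were recovered by dividing each column by its smallest positive value; 100% of values lay within 0.05 of a whole number. Of the sample columns, 0 were unused, and 4 groups had a column numbered 4 that was assigned to its group only. Each comparison was fitted with limma 3.58.1 (R 4.3.3) on log2(value + 1) with a trend, for genes that reached 10 in 3 or more libraries. Calls used a threshold of 0.05 on p adjusted by Benjamini-Hochberg over all tested genes. The pseudocount understates the change of low genes. Alternatives were other pseudocounts, no filter, quantile normalization, edgeR 4.0.16 and DESeq2 1.42.0 on recovered reads, a replicate block and leaving out each library, which was extended to the pooled read ratios after seeing the data. Mean RPM was also taken without Rn45s and with TMM scaling over the 48 libraries. The fit was tested on simulated data.

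The 8 genes and all lists were chosen with earlier results of these data known. Pathway genes named are those called, at most 4 a list and comparison by size, or, with none called, at most 2 by the smallest p; some genes that meet the rule are not reported here. Intervals (exact, 95%) and floors of 3 reads cover counting error only.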

Additional observations from a re-analysis of the deposited data

How the results depend on the processing

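The count of the 8 genes called did not move beyond 1.5 times in 12 of 14 comparisons. Between libraries labelled Slc22a3-cKO and flox controls it was 4, and leaving out each library gave 2 to 3. Without any 1 of the libraries labelled Slc22a3-cKO, Irg1 and Nos2 have too few libraries to pass the filter. The count was then 2 without the first or second, and 3 without the third, where Slc7a2 was called lower (-1.90). Nos2 was lost with a pseudocount of 0.1 and without each flox control in turn. Between olfactory bulb and cortex mCh neurons the count was 2; it was 1 under quantile normalization and in edgeR, and 1 to 2 without each library. Between CNO-control and untreated libraries it was 2 to 3. The Slc7a2 log2 difference between Gq-CNO and Gq-Saline olfactory bulb GFP astrocytes turned to -0.0023 without the first Gq-Saline library. Quantile normalization moved the median of all genes by -0.38 for olfactory bulb against cortex, -0.17 for olfactory bulb against hippocampus, 0.18 for cortex against hippocampus and 0.11 for libraries labelled Slc22a3-cKO against flox controls.

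Same-numbered libraries were treated as sharing only a number: over the 22 pairs numbered in the labels, which leave out the GFP columns numbered 4, the correlation of their deviations ran between -0.0935 and 0.117, and 1 was over 0.1. Each pair joins a treated and a reference group of the same region and sort. Same-numbered libraries of different regions were not checked, so these correlations do not bear on the region comparisons. With the replicate block, 3 of the 8 genes were called in libraries labelled Slc22a3-cKO against flox controls (Nos2 lost), and no other call of the 8 changed. Over all genes the block gave 105 calls there, 12 in hippocampus and 0 in olfactory bulb GFP astrocytes.

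Calls over all genes moved most for libraries labelled Slc22a3-cKO against flox controls: 341 in limma, 195 and 524 with pseudocounts of 0.1 and 10, 1154 in DESeq2 and 81 to 1277 without each library. CNO-control against untreated gave 526 to 1614, olfactory bulb against cortex 669 to 1149 and olfactory bulb against hippocampus 774 in DESeq2. Cortex against hippocampus gave 28 with a pseudocount of 0.1, 25 with no filter, 180 in DESeq2 and 15 to 53 without each library. For Gq-CNO against Gq-Saline, the 1 call in olfactory bulb GFP astrocytes became 0 with a pseudocount of 0.1, no filter, quantile normalization or edgeR; DESeq2 called 5 genes in hippocampus GFP astrocytes and 2, 3 and 13 in olfactory bulb, cortex and hippocampus mCh neurons, and no filter gave 2 in cortex. Interaction counts were 1 in edgeR for both olfactory bulb pairs, and 15 (olfactory bulb minus cortex) and 21 (cortex minus hippocampus) in DESeq2. The causes were not tested. Libraries with few reads limit the mCh neuron and cortex comparisons, and reads near 0 limit Irg1, Nos2, Ido1 and Arg1.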
